A study of Rattus norvegicus with 19 samples.

Results

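The genes of the cell division cycle were followed in rat motor cortex after the spinal cord was cut. The list held 36 genes that drive DNA replication, mitosis and cytokinesis. Probe sets annotated to a single symbol measured 33 of them, each through its brightest probe set over all arrays, of 14217 genes measured in all. Of the other 3, Tpx2 and Ncapg were matched to no such probe set, and Rrm2 only to 2 probe sets that it shares with Rrm2l1. By role, 7 of the 33 are cyclins and mitotic kinases, 6 act in the spindle checkpoint and anaphase, 3 are chromosome proteins and proliferation markers, 8 build the spindle or divide the cell, and 9 replicate DNA or supply its nucleotides.

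The samples were 19 arrays, each of 1 RNA sample from adult female Fischer 344 rats. The deep cortex of the forelimb and hindlimb motor areas had been dissected, where the corticospinal neurons of layer V lie. Controls numbered 4 arrays. Lesioned rats gave 3 arrays at each of days 1, 3, 7, 14 and 49 after a wire knife lesion of the dorsal columns at cervical segment 3, which cuts the axons of those neurons far from the dissected tissue. Whether the controls were sham operated, and whether a sample is 1 rat or a pool, is not stated in the labels, so p-values measure the spread between these samples. The tissue is a mixture of cells, in which fewer dividing cells and less RNA per cell cannot be told apart.

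A cell divides by copying its DNA in S phase, condensing and separating the chromosomes in mitosis and then splitting in cytokinesis. The genes for replication are driven by E2F factors as the cell leaves G1, and the genes for mitosis are expressed later, in G2 and M, under the DREAM and MuvB complexes with B-Myb and FoxM1, which act through the cell cycle genes homology region (CHR) of their promoters and through NF-Y at CCAAT boxes. Adult cortical neurons have left the cycle for good. Dividing cells of the adult cortex are mainly oligodendrocyte precursors, with microglia and astrocytes joining after injury, so transcripts of mitosis are normally scarce there.

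Promoter sequences are shown because the members are known for these sites. Promoters from RefSeq (assembly GRCr8, 250 bases before to 50 bases after the start site) were found for 29 of the 36 genes and for 27457 genes in all. The CHR core TTTGAA was searched on both strands and lay in 15 of the 29 promoters (51.7%), against 18.1% of all promoters. CCAAT, on either strand, lay in 23 of 29 (79.3%), against 37.7% of all. An E2F site spelled TTCCCGC or TTGGCGC lay in 10 of 29 (34.5%), against 6.67% of all. TTTGAA was in 4 of 4 promoters of chromosome genes and in 1 of 8 promoters of replication genes, and the E2F site in 1 of 4 and 6 of 8. These matches are descriptions and not shown binding sites.

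The 250 bases before the start of 5 genes are printed 5′ to 3′ along the gene's own strand, chosen after the values were seen. Cdk1, Ccnb2, Prc1 and Mcm6 are among the genes whose day 7 arrays all lay above the control arrays, and Top2a is a marker of proliferation. Capitals mark the CHR core, the CCAAT box and the letters of the E2F site, or their reverse complement where the match lies on the other strand.
Cdk1: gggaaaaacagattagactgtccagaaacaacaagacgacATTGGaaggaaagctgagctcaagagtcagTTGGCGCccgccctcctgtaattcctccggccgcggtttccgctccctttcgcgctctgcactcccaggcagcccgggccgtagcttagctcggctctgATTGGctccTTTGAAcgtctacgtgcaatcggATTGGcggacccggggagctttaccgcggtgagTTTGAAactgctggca
Ccnb2: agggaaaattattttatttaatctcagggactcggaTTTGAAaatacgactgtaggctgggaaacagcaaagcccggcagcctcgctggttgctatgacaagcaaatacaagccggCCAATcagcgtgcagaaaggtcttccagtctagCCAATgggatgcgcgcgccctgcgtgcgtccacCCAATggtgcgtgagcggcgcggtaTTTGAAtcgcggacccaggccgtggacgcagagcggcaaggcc
Prc1: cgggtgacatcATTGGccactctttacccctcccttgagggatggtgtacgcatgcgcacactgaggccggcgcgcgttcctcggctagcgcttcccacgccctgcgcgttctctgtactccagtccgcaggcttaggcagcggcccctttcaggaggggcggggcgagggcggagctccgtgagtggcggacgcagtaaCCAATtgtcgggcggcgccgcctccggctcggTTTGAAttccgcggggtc
Top2a: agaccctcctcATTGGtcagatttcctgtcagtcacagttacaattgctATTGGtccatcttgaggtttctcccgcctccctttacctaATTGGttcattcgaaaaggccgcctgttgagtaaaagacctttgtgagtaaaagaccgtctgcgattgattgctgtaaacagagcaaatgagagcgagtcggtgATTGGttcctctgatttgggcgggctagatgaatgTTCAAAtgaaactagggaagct
Mcm6: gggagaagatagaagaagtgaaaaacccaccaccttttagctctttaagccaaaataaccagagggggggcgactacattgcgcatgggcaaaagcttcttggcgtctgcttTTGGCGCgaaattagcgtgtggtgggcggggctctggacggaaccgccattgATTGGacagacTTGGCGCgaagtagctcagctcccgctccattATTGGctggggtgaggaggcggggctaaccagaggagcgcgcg
They lie at chr20:19265043-19265292 on the plus strand (Cdk1), chr8:79981659-79981908 on the minus strand (Ccnb2), chr1:143659231-143659480 on the plus strand (Prc1), chr10:84473094-84473343 on the minus strand (Top2a) and chr13:42404353-42404602 on the minus strand (Mcm6). The 4 genes of mitosis each hold TTTGAA close to the start, on either strand, together with 2 to 4 CCAAT boxes. Mcm6, a subunit of the replicative helicase, holds no TTTGAA here, 2 CCAAT boxes and 2 E2F sites.

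Before the results, 2 arrays have to be set apart. Day 14 replicate 2 correlated with the other arrays at a median r of 0.931 and day 49 replicate 2 at 0.968, while the other 17 lay between 0.994 and 0.997. Beta-actin read 2.24 higher on the log2 scale at its 3′ end than at its 5′ end in day 14 replicate 2, against 0.877 to 1.29 in the 17 arrays and 0.845 in day 49 replicate 2. GAPDH gave 3.18 in day 14 replicate 2, against 0.001 to 0.196 in the 17 arrays. Differences at days 14 and 49 are therefore given with all 19 arrays and with these 17, in which both times have 2 arrays. Differences at days 1, 3 and 7 are the same in both fits and only their errors and p-values change.

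Values are log2 signals. The members were dim: 9 of 33 lay above the median probe set (5.60), and their means over the arrays ran from 3.44 for Ccna2 to 9.95 for Pcna with a median of 4.83. A list of 18 genes of other organs, such as Alb and Ins2, which brain tissue should hardly express, had a median of 4.08. Many members read in the same range as those genes. Levels are compared between genes only against that list, since probe sets differ in response.

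No member passed the threshold (limma, adjusted p under 0.05 over 31042 probe sets) at any of the 5 times or in the F test over all of them, with 19 or with 17 arrays. Over all probe sets the share that passed was 0.0354% at day 1, 0% at days 3, 7, 14 and 49 and 0.0129% in the F test with 19 arrays, and 0.219%, 0% and 0.135% with 17. At an unadjusted p under 0.05 there were 0, 0, 2, 7 and 3 members at days 1, 3, 7, 14 and 49 and 2 in the F test with 19 arrays, where 1.64%, 0.908%, 0.886%, 13.1%, 15.4% and 4.41% of all probe sets lay. With 17 arrays there were 0, 0, 3, 3, 2 and 3, beside 7.12%, 4.56%, 4.89%, 5.68%, 12% and 7.07% of all probe sets. "Above" and "below" control therefore give the sign of a difference here and not a call.

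What the members shared was a small displacement at day 7. Of the 33, 11 lay above control at day 1, 18 at day 3, 30 at day 7, 30 at day 14 (25 with 17 arrays) and 20 at day 49 (20 with 17 arrays). The median difference over members was -0.02, 0.00, 0.08, 0.14 (0.04 with 17 arrays) and 0.02 (0.02 with 17 arrays). Over all 14217 genes, 52.7%, 47.2%, 53.9%, 63% (53.4%) and 44.5% (50.3%) lay above control. Their medians were 0.006, -0.005, 0.007, 0.063 (0.007) and -0.028 (0.001). At days 7 and 14 the members lay above control more often than the genes at large. At day 14 with 17 arrays, 20 of the 24 members below the median probe set and 5 of the 9 above it did. The median of 0.08 at day 7 stands beside a median standard error of 0.14 for the difference of a single member (0.08 with 17 arrays). Without control replicate 4 the day 7 median was 0.0485. The 5 comparisons share the 4 control arrays, so they are not independent of each other.

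**Figure D1:**
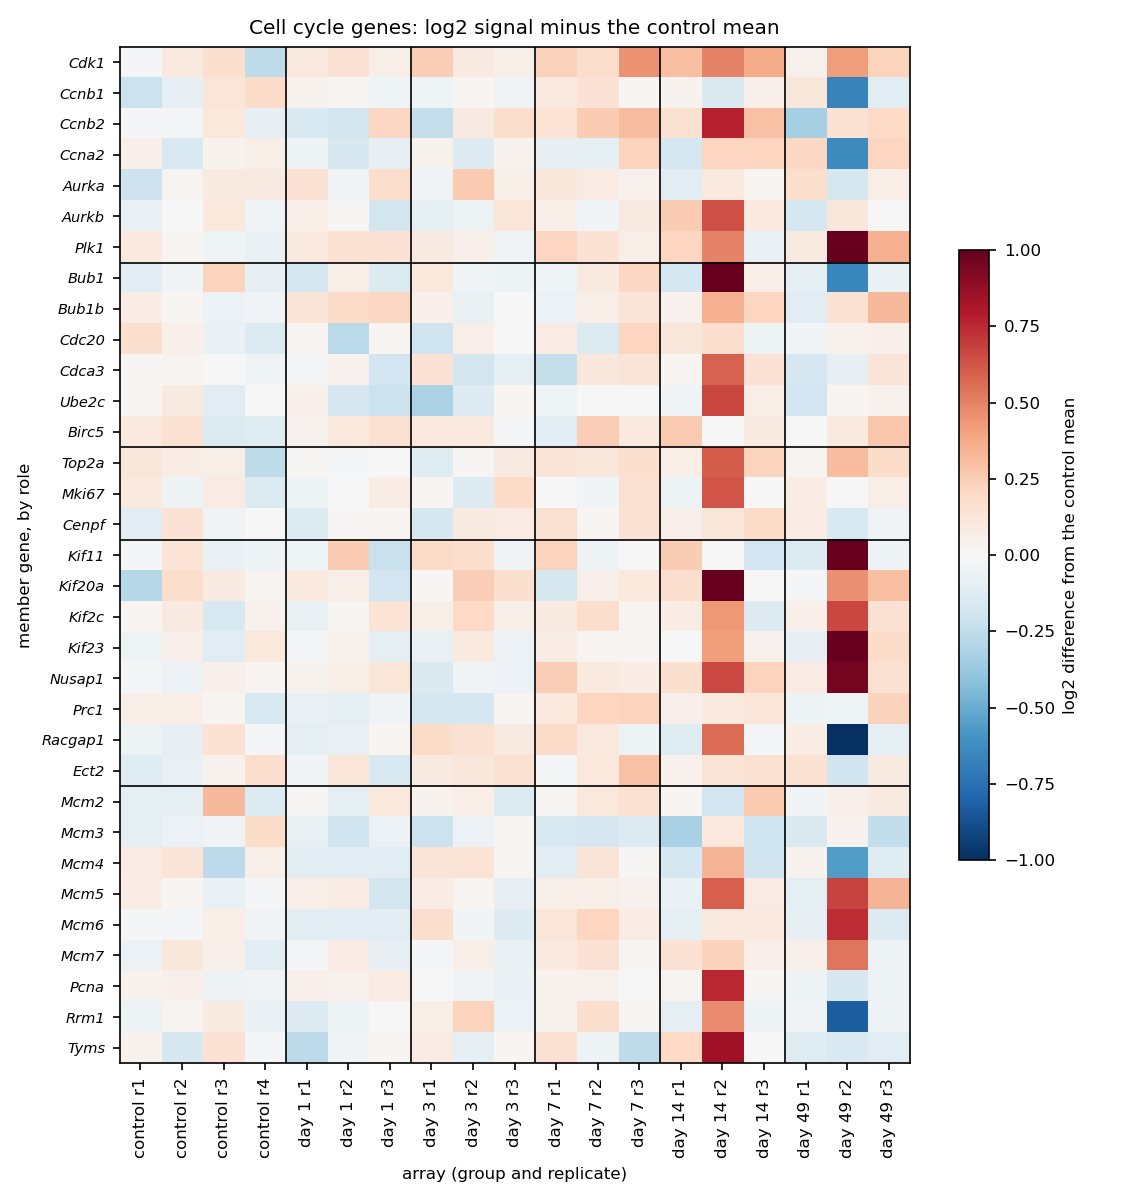
Log2 signal of each of the 33 members (rows, ordered by role) in each of the 19 arrays (columns) minus that gene's control mean, with red above and blue below and with values beyond the ends of the scale drawn in the end colours. The day 7 columns are pale red in most rows, day 14 replicate 2 is red in most rows, and day 49 replicate 2 is both strongly red and strongly blue.

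Cdk1 (probe set 1367776_at), the kinase whose activity with cyclin B drives entry into mitosis, had the smallest p of the members at day 14. It read 4.38, 4.49, 4.56 and 4.14 in the control arrays, 4.49, 4.53 and 4.45 at day 1 and 4.64, 4.49 and 4.45 at day 3. Later arrays gave 4.63, 4.57 and 4.84 at day 7, 4.70, 4.89 and 4.76 at day 14 and 4.43, 4.81 and 4.62 at day 49. All 3 arrays of day 7 and of day 14 lay above the highest control array, by little at day 7 (4.57 against 4.56). The difference from control was 0.29 ± 0.11 (SE) at day 7 and 0.39 ± 0.11 at day 14, a 1.31-fold signal, with limma adjusted p = 1 and 0.365. Without the 2 arrays the day 14 difference was 0.34 ± 0.11 (adjusted p = 0.72, unadjusted 0.00587). Without control replicate 4, the lowest control array at 4.14, the day 7 difference was 0.20. Cdk1 was above control at all 5 times in both fits, with 0.10 at day 1, 0.13 at day 3 and 0.23 at day 49 (0.13 with 17 arrays).

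Ccnb2 (probe set 1389566_at), a B-type cyclin, read 4.75, 4.76, 4.88 and 4.68 in the control arrays, 4.61, 4.59 and 4.97 at day 1 and 4.53, 4.86 and 4.94 at day 3. At the later times it read 4.90, 5.02 and 5.07 at day 7, 4.92, 5.54 and 5.06 at day 14 and 4.43, 4.91 and 4.96 at day 49. Its day 7 and day 14 arrays also lay above every control array, and those of days 1, 3 and 49 overlapped the controls. The difference was 0.23 ± 0.16 at day 7 (adjusted p = 1) and 0.41 ± 0.16 at day 14 (0.365), of which 0.22 ± 0.14 remained without day 14 replicate 2 (0.911). Ccna2 (probe set 1379582_a_at), the S and G2 phase cyclin and the dimmest member, read 3.51, 3.30, 3.49 and 3.51 in the control arrays, 3.40, 3.29 and 3.37 at day 1 and 3.48, 3.32 and 3.49 at day 3. Its later arrays gave 3.37, 3.36 and 3.67 at day 7, 3.28, 3.67 and 3.67 at day 14 and 3.66, 2.82 and 3.67 at day 49. The value of 2.82 in day 49 replicate 2 was the lowest of all, and the other 2 arrays of that day were above all controls. So the day 49 difference was -0.07 ± 0.17 with 19 arrays and 0.21 ± 0.11 with 17. The mean of Ccna2 over the arrays, 3.44, lay below those of all 18 genes of other organs (lowest 3.65). Its probe set is therefore not shown to read above background.

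Plk1 (probe set 1370297_at), a kinase of centrosomes and kinetochores, read 6.09, 6.01, 5.95 and 5.92 in the control arrays, 6.09, 6.14 and 6.14 at day 1 and 6.08, 6.05 and 5.96 at day 3. Thereafter it read 6.21, 6.14 and 6.05 at day 7, 6.21, 6.49 and 5.92 at day 14 and 6.08, 7.01 and 6.35 at day 49. It was above control at all 5 times in both fits. The day 49 difference was 0.49 ± 0.16 (adjusted p = 0.306, unadjusted 0.00912) and was 0.22 ± 0.09 (adjusted p = 0.332) without the replicate that read 7.01, and the array at 6.08 lay within the control range. Left out instead, day 49 replicate 1 gave a difference of 0.68 for Plk1 with adjusted p = 0.0285, and 7.84% of all probe sets then passed. Aurkb (probe set 1368260_at), the kinase of the chromosomal passenger complex, read 3.41, 3.49, 3.59 and 3.45 in the control arrays, 3.55, 3.50 and 3.31 at day 1 and 3.39, 3.44 and 3.61 at day 3. Later it read 3.55, 3.46 and 3.58 at day 7, 3.74, 4.13 and 3.58 at day 14 and 3.31, 3.60 and 3.49 at day 49. Its day 14 difference of 0.33 ± 0.11 (adjusted p = 0.365) was 0.17 ± 0.09 (0.881) without the array at 4.13. The mean of Aurkb over the arrays, 3.54, lay below those of all 18 genes of other organs (lowest 3.65). Its probe set is therefore not shown to read above background.

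The other 2 of this role were Ccnb1 and Aurka. Ccnb1, the other B-type cyclin, had a control mean of 6.62 ± 0.18 (SD, n = 4) and differences of -0.22 to 0.09 with 19 arrays and -0.02 to 0.09 with 17. Aurka, the centrosomal aurora kinase, had a control mean of 6.14 ± 0.14 (SD, n = 4) and differences of 0.00 to 0.10 with 19 arrays and -0.04 to 0.12 with 17. The 7 genes of the role were all above control at day 7, with a median of 0.09.

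**Figure D2:**
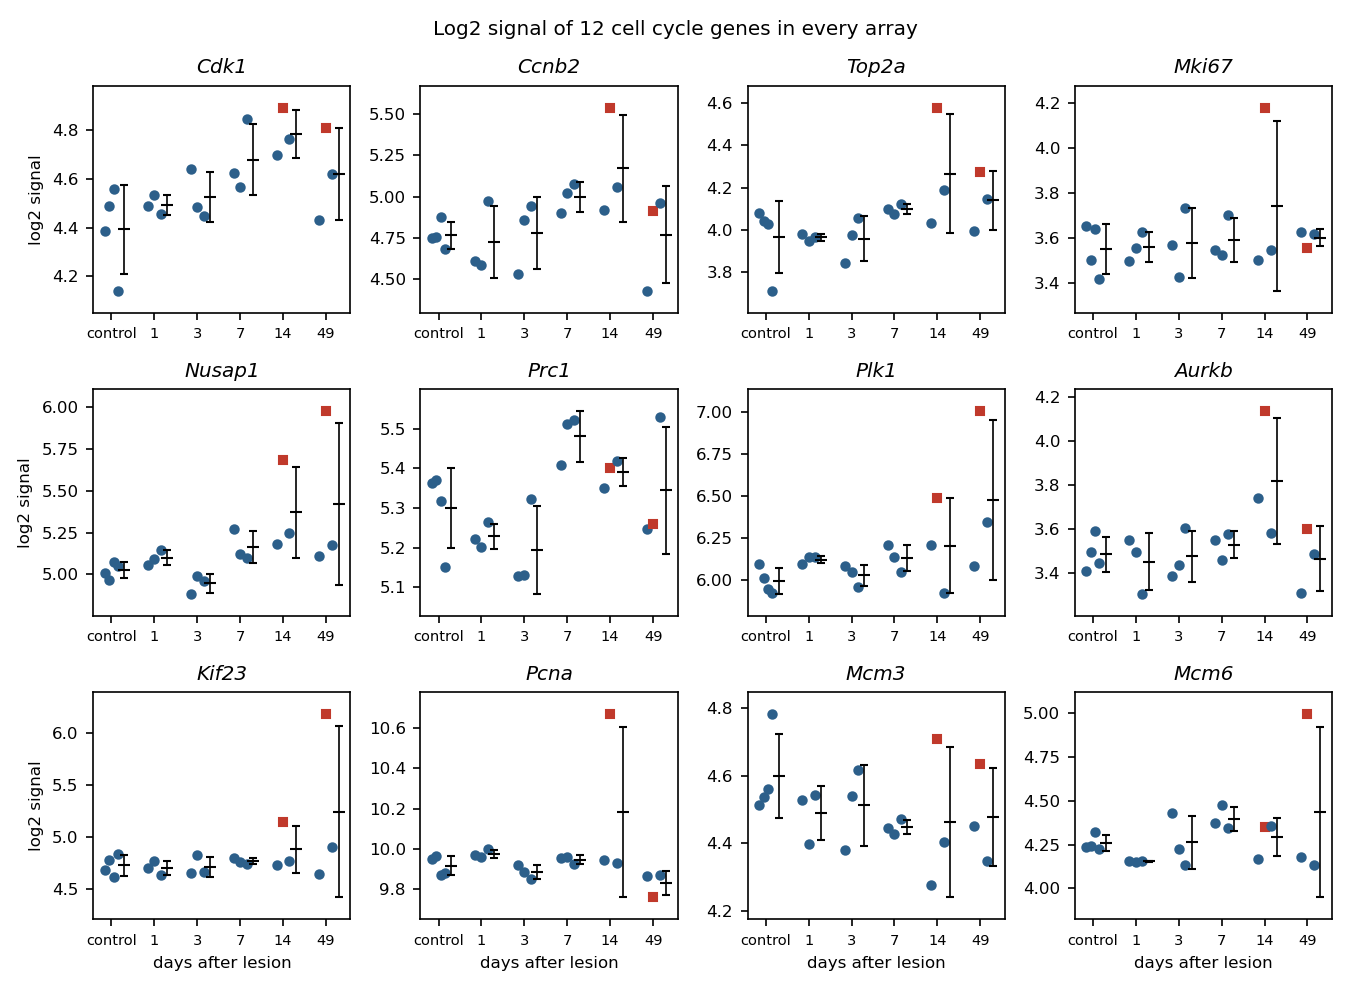
Log2 signal of 12 members against days after lesion, with 1 point per array, red squares for day 14 replicate 2 and day 49 replicate 2, and bars for the mean and SD of each group. Cdk1, Ccnb2, Nusap1, Prc1 and Mcm6 have their 3 day 7 points above all control points, and the red squares are the highest points of their group at day 14 for every gene drawn except Prc1 and Mcm6.

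Among genes of the spindle checkpoint and anaphase, Bub1b (probe set 1383926_at) encodes BubR1, the checkpoint kinase that holds back anaphase. It read 4.05, 3.99, 3.91 and 3.94 in the control arrays, 4.10, 4.17 and 4.18 at day 1 and 4.02, 3.90 and 3.98 at day 3, so that its day 1 arrays lay above all control arrays. Later arrays gave 3.91, 4.04 and 4.10 at day 7, 4.01, 4.33 and 4.19 at day 14 and 3.86, 4.13 and 4.30 at day 49. The day 1 difference was 0.18 ± 0.10 (adjusted p = 1 with 19 arrays and 0.709 with 17), and it was the largest positive one of any member at day 1. The control arrays themselves spanned 3.91 to 4.05.

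Ube2c (probe set 1388484_at), the ubiquitin-conjugating enzyme that serves the anaphase-promoting complex, read 5.06, 5.13, 4.93 and 5.05 in the control arrays, 5.10, 4.87 and 4.83 at day 1 and 4.73, 4.92 and 5.06 at day 3. It then read 4.999, 5.04 and 5.04 at day 7, 5.02, 5.71 and 5.11 at day 14 and 4.85, 5.06 and 5.08 at day 49. Only the array at 5.71 left the range of the others, and the day 14 difference of 0.24 ± 0.14 became 0.02 ± 0.10 without it. Birc5 (probe set 1368799_at), the survivin subunit of the chromosomal passenger complex, read 5.07, 5.12, 4.84 and 4.85 in the control arrays, 5.002, 5.08 and 5.12 at day 1 and 5.07, 5.07 and 4.96 at day 3. At later times it read 4.86, 5.21 and 5.07 at day 7, 5.23, 4.97 and 5.06 at day 14 and 4.97, 5.07 and 5.25 at day 49. Birc5 was above control at all 5 times in both fits, by 0.06 to 0.13 with 19 arrays and 0.06 to 0.17 with 17, and its arrays overlapped the controls at every time.

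The other 3 of the role were Bub1, Cdc20 and Cdca3. Bub1, the kinase partner of BubR1 at kinetochores, had a control mean of 4.10 ± 0.15 (SD, n = 4) and differences of -0.27 to 0.35 with 19 arrays and -0.08 to 0.09 with 17. With 19 arrays it gave 0.35 at day 14 and -0.27 at day 49, and with 17 it gave -0.06 and -0.08. Cdc20, the activator of the anaphase-promoting complex, had a control mean of 5.33 ± 0.13 (SD, n = 4) and differences of -0.08 to 0.08 with 19 arrays and -0.08 to 0.05 with 17. Cdca3, which promotes mitotic entry, had a control mean of 4.73 ± 0.03 (SD, n = 4) and differences of -0.06 to 0.25 with 19 arrays and -0.06 to 0.08 with 17. At day 7 the role counted 5 of 6 above control with a median of 0.05.

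Mki67 (probe set 1374775_at) encodes Ki-67, the protein coat of mitotic chromosomes by which dividing cells are counted in tissue. It read 3.65, 3.50, 3.64 and 3.42 in the control arrays, 3.50, 3.56 and 3.63 at day 1 and 3.57, 3.43 and 3.74 at day 3. The later arrays gave 3.55, 3.53 and 3.70 at day 7, 3.51, 4.18 and 3.55 at day 14 and 3.63, 3.56 and 3.62 at day 49. Apart from 4.18 in day 14 replicate 2, all lesion arrays lay between 3.43 and 3.74, beside 3.42 to 3.65 in the controls. The day 7 difference was 0.04 with a 95% interval of -0.24 to 0.32 (19 arrays) or -0.12 to 0.20 (17 arrays), and the day 14 difference of 0.19 ± 0.13 was -0.03 ± 0.09 with 17 arrays. Its mean over the arrays, 3.60, was below those of all 18 genes of other organs (lowest 3.65, Prm1), so the probe set is not shown to read above background and its intervals bound the signal, not the transcript.

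Top2a (probe set 1388650_at), the topoisomerase that untangles sister chromatids, read 4.08, 4.04, 4.03 and 3.71 in the control arrays, 3.98, 3.95 and 3.97 at day 1 and 3.84, 3.98 and 4.06 at day 3. In later arrays it read 4.10, 4.08 and 4.12 at day 7, 4.03, 4.58 and 4.19 at day 14 and 3.997, 4.28 and 4.15 at day 49. The day 7 arrays lay within 4.08 to 4.12, at the top of the control range, and control replicate 4 was the lowest array of all, without which the day 7 difference was 0.0485. The difference was 0.13 ± 0.12 at day 7 (adjusted p = 1) and 0.30 ± 0.12 at day 14 (0.365), or 0.14 ± 0.09 without day 14 replicate 2 (0.911). The other, dimmer probe set of Top2a showed neither rise, with -0.007 at day 7 and -0.018 at day 14 (-0.009 with 17 arrays). Cenpf, a kinetochore protein, had a control mean of 3.75 ± 0.10 (SD, n = 4) and differences of -0.04 to 0.12 with 19 arrays and -0.03 to 0.12 with 17, with 0.10 at day 7.

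Of the spindle and cytokinesis genes, Nusap1 (probe set 1384280_at), which bundles spindle microtubules at chromosomes, had all its arrays above the controls at days 7, 14 and 49. It read 5.01, 4.97, 5.08 and 5.05 in the control arrays, 5.06, 5.09 and 5.15 at day 1 and 4.88, 4.99 and 4.96 at day 3. Later it gave 5.27, 5.12 and 5.10 at day 7, 5.18, 5.68 and 5.25 at day 14 and 5.11, 5.98 and 5.18 at day 49. The highest control array was 5.08. At day 1, 2 of 3 arrays also lay above it (difference 0.08), and at day 3 none did (-0.08). With 19 arrays the differences were 0.14, 0.35 and 0.40 (SE 0.16 each), with adjusted p = 1, 0.365 and 0.307. With 17 they were 0.14, 0.19 and 0.12 (SE 0.06 each), with adjusted p = 0.986, 0.798 and 0.488. Its F test gave the smallest p of the members in 17 arrays, 0.00689 unadjusted and 0.502 adjusted.

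Prc1 (probe set 1392899_at), which crosslinks microtubules of the midzone between separating chromosomes, read 5.36, 5.37, 5.32 and 5.15 in the control arrays, 5.22, 5.20 and 5.26 at day 1 and 5.13, 5.13 and 5.32 at day 3. It went on with 5.41, 5.51 and 5.52 at day 7, 5.35, 5.40 and 5.42 at day 14 and 5.25, 5.26 and 5.53 at day 49. The 3 arrays of day 7 stood above all arrays of control and of days 1 and 3, and those of days 14 and 49 lay partly within the control range. The difference from control at day 7 was 0.18 ± 0.08, with adjusted p = 1 and an unadjusted p of 0.0438, or 0.0307 with 17 arrays. Against day 3, a comparison without control arrays, the day 7 difference was 0.29 ± 0.09 (adjusted p = 1).

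Kif23 (probe set 1395828_at), a motor of the centralspindlin complex, read 4.68, 4.78, 4.62 and 4.84 in the control arrays, 4.71, 4.77 and 4.64 at day 1 and 4.65, 4.83 and 4.67 at day 3. Thereafter it read 4.80, 4.76 and 4.75 at day 7, 4.73, 5.15 and 4.77 at day 14 and 4.65, 6.18 and 4.91 at day 49. The day 49 difference of 0.52 ± 0.24 (adjusted p = 0.322) was that of the array at 6.18, and 0.05 ± 0.08 was left without it. Racgap1 (probe set 1373658_at), the other part of centralspindlin, read 8.25, 8.21, 8.44 and 8.29 in the control arrays, 8.21, 8.22 and 8.32 at day 1 and 8.48, 8.45 and 8.39 at day 3. It then gave 8.49, 8.39 and 8.24 at day 7, 8.18, 8.86 and 8.28 at day 14 and 8.38, 7.15 and 8.21 at day 49. Day 49 replicate 2 was low here, at 7.15, and day 14 replicate 2 was high, at 8.86. The day 49 difference of -0.39 ± 0.22 was -0.01 ± 0.08 with 17 arrays. So on these probe sets the 2 partners of 1 complex lay far apart in day 49 replicate 2, Kif23 above and Racgap1 below every other array. The other probe set of Kif23 did not repeat this, with day 49 differences of -0.02 with 19 arrays and -0.01 with 17. The other probe set of Racgap1 gave -0.22 and -0.23. At day 14 that probe set gave -0.42 with 19 arrays and -0.14 with 17, where 1373658_at gave 0.14 and -0.07.

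Ect2 (probe set 1383747_at), the exchange factor that starts the contractile ring, read 3.63, 3.68, 3.79 and 3.92 in the control arrays, 3.72, 3.88 and 3.61 at day 1 and 3.85, 3.87 and 3.91 at day 3. Later arrays gave 3.75, 3.86 and 4.05 at day 7, 3.80, 3.89 and 3.91 at day 14 and 3.91, 3.56 and 3.85 at day 49. Its differences ran from -0.02 to 0.13 with 19 arrays and -0.02 to 0.13 with 17, and its arrays overlapped the controls at every time. The motors Kif11, Kif20a and Kif2c had control means of 4.62 ± 0.09 (SD, n = 4), 4.68 ± 0.20 (SD, n = 4) and 4.15 ± 0.10 (SD, n = 4). Kif11, which pushes spindle poles apart, differed by 0.00 to 0.30 with 19 arrays and -0.09 to 0.11 with 17. Its 0.30 at day 49 was -0.09 with 17 arrays, and the other probe set of Kif11 gave -0.04 there with 19. Kif20a, a motor of cytokinesis, differed by -0.01 to 0.42 with 19 arrays and -0.01 to 0.15 with 17, and its 0.42 at day 14, the largest of all members there, was 0.08 with 17. Kif2c, which removes tubulin at kinetochores, differed by 0.03 to 0.29 with 19 arrays and -0.03 to 0.11 with 17. Its 0.12 at day 14 and 0.29 at day 49 were -0.03 and 0.10 with 17 arrays. The other probe set of Kif2c gave 0.04 and -0.04 at these times with 19 arrays. All 8 measured genes of this role were above control at day 7, with a median of 0.09.

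Genes of replication were split. Mcm3 and Mcm6 are subunits of the MCM helicase, which is loaded on DNA as a ring of 6 different proteins. Mcm3 (probe set 1372406_at) read 4.51, 4.54, 4.56 and 4.78 in the control arrays, 4.53, 4.40 and 4.54 at day 1 and 4.38, 4.54 and 4.62 at day 3. Later it read 4.45, 4.43 and 4.47 at day 7, 4.28, 4.71 and 4.40 at day 14 and 4.45, 4.64 and 4.35 at day 49. It was the only member below control at all 5 times, in both fits, and its day 7 arrays lay below every control array. The difference was -0.15 ± 0.10 at day 7 (adjusted p = 1). At day 14 it was -0.14 ± 0.10 (0.49) with 19 arrays and -0.26 ± 0.08 (0.787) with 17, since day 14 replicate 2 lay high.

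Mcm6 (probe set 1371074_a_at) read 4.24, 4.24, 4.32 and 4.23 in the control arrays, 4.16, 4.15 and 4.16 at day 1 and 4.43, 4.23 and 4.13 at day 3. Its later arrays gave 4.38, 4.47 and 4.34 at day 7, 4.17, 4.35 and 4.36 at day 14 and 4.18, 4.99 and 4.13 at day 49. It lay below all controls at day 1 (-0.10 ± 0.15) and above all of them at day 7 (0.14 ± 0.15), with adjusted p = 1 and 1. At day 49 the array at 4.99 set the difference of 0.18, which was -0.10 with 17 arrays. Mcm4 (probe set 1373557_at) read 5.94, 5.99, 5.60 and 5.92 in the control arrays, 5.75, 5.75 and 5.75 at day 1 and 5.99, 5.998 and 5.88 at day 3. Later arrays read 5.75, 5.99 and 5.88 at day 7, 5.69, 6.20 and 5.67 at day 14 and 5.90, 5.30 and 5.74 at day 49. Mcm4 was near control at day 7 (0.01 ± 0.15), and the 17 arrays gave -0.19 at day 14 where the 19 gave -0.01.

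The other subunits Mcm2, Mcm5 and Mcm7 had control means of 5.59 ± 0.22 (SD, n = 4), 5.39 ± 0.06 (SD, n = 4) and 7.31 ± 0.10 (SD, n = 4). Their day 7 differences were 0.09, 0.05 and 0.09. Over the 5 times Mcm2 differed by -0.01 to 0.09 with 19 arrays and -0.01 to 0.14 with 17, Mcm5 by -0.01 to 0.30 with 19 arrays and -0.01 to 0.12 with 17 and Mcm7 by -0.01 to 0.18 with 19 arrays and -0.01 to 0.10 with 17. At day 49, Mcm5 gave 0.30 and Mcm7 0.18 with 19 arrays, or 0.12 and 0.00 with 17. At day 14, Mcm2 gave 0.03 and 0.14. At day 7, then, 5 of the 6 MCM subunits were above control and Mcm3 was below it.

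Pcna (probe set 1367671_at), the sliding clamp of the replication fork and also a repair factor, was the brightest member. It read 9.95, 9.97, 9.87 and 9.88 in the control arrays, 9.97, 9.96 and 9.998 at day 1 and 9.92, 9.88 and 9.85 at day 3. Later it read 9.96, 9.96 and 9.92 at day 7, 9.95, 10.67 and 9.93 at day 14 and 9.86, 9.76 and 9.87 at day 49. Leaving aside 10.67 in day 14 replicate 2 and 9.76 in day 49 replicate 2, all arrays lay between 9.85 and 9.998. The 95% interval of the day 7 difference of 0.03 was -0.07 to 0.13 with 17 arrays. The day 49 arrays lay below all control arrays in both fits, narrowly for replicate 3, with a difference of -0.09 ± 0.13 with 19 arrays (adjusted p = 0.718) and -0.05 ± 0.05 with 17 (adjusted p = 0.754). At day 14 it was 0.26 and 0.02.

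Tyms (probe set 1369499_at), the thymidylate synthase, read 4.08, 3.88, 4.19 and 4.03 in the control arrays, 3.78, 4.02 and 4.07 at day 1 and 4.13, 3.96 and 4.06 at day 3. Later arrays gave 4.20, 3.997 and 3.79 at day 7, 4.24, 4.89 and 4.04 at day 14 and 3.92, 3.89 and 3.94 at day 49. The array at 4.89 set its day 14 difference of 0.35 ± 0.16 (adjusted p = 0.365), which was 0.10 ± 0.11 without it. Rrm1, the large subunit of ribonucleotide reductase, had a control mean of 7.11 ± 0.07 (SD, n = 4) and differences of -0.30 to 0.11 with 19 arrays and -0.07 to 0.07 with 17. Its lowest, -0.30 at day 49, was -0.04 with 17. The 9 replication genes had a median of 0.05 at day 7, with 7 above control.

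At day 7, 5 members had all 3 arrays above all 4 control arrays: Cdk1, Ccnb2, Nusap1, Prc1 and Mcm6. That was so for 2.86% of all probe sets. Mcm3 had them all below, as did 4.19% of all probe sets. At day 1 Bub1b lay above (4.4% of all probe sets) and Mcm6 below (2.54%), and at day 3 no member did either (2.65% and 2.82%). At day 14 Cdk1, Ccnb2 and Nusap1 lay above (6.43%) and none below (2.62%), and with 17 arrays, where 8.82% and 5.77% of all probe sets did so, Mcm3 joined below. At day 49 Nusap1 lay above (5.27%) and Pcna below (4.8%). With 17 arrays Ccna2 joined above (7.54%) and Mcm3 and Mcm6 below (7.13%). The 5 of 33 above at day 7 are a larger share than that of all probe sets, and the counts at the other times lie near it. Over the arrays these 5 had means of 4.57 (Cdk1), 4.86 (Ccnb2), 5.16 (Nusap1), 5.32 (Prc1) and 4.30 (Mcm6). All lay within the range of the genes of other organs (3.65 to 6.22), so their level alone does not show that the transcripts were detected.

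As a mean over the 33 members, the control arrays lay between 5.09 and 5.14. Day 1 arrays lay between 5.10 and 5.12 and day 3 arrays between 5.12 and 5.15. Day 7 arrays lay between 5.17 and 5.21, above every control array. Day 14 arrays gave 5.16, 5.53 and 5.18, and day 49 arrays 5.10, 5.23 and 5.20. In differences from the control mean, day 7 was 0.05, 0.08 and 0.09, against -0.03 to 0.02 in the controls themselves. Day 14 replicate 2 was at 0.41 and held the highest value of all 19 arrays for 15 of the 33 members. The other 2 arrays of that day, at 0.04 and 0.07, overlapped those of day 7.

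**Figure D3:**
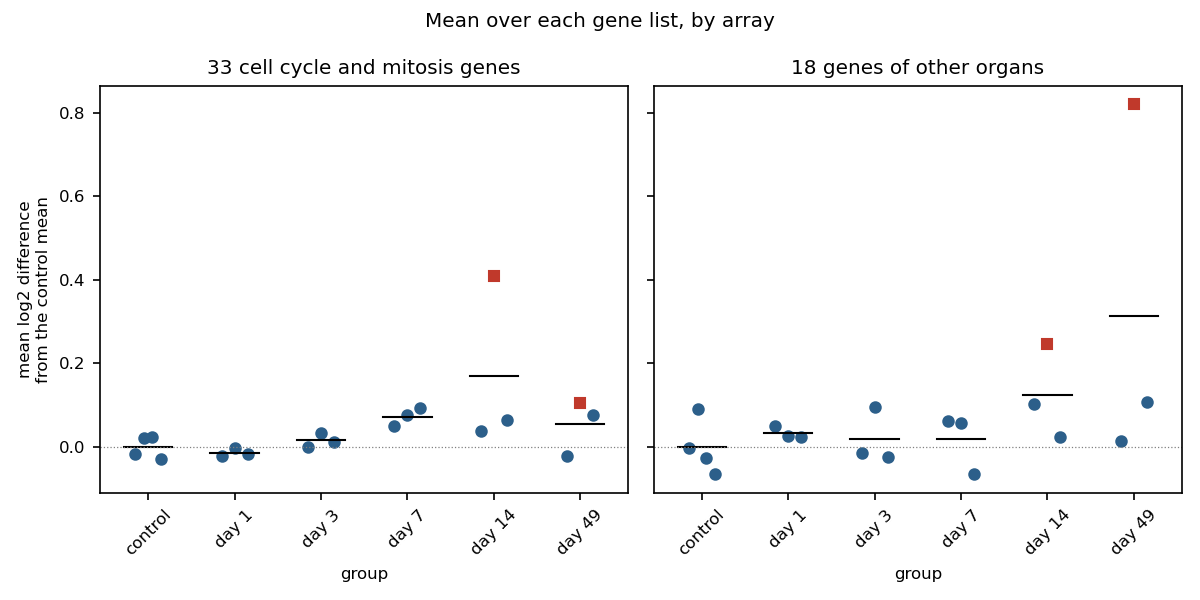
Mean over the 33 members (left) and over 18 genes of other organs (right) in each array, as the log2 difference from the control mean, with red squares for day 14 replicate 2 and day 49 replicate 2 and a line at each group's mean. For the members the 3 day 7 arrays lie at 0.05 to 0.09, above all controls, while for the genes of other organs the day 7 arrays overlap the controls and day 49 replicate 2 lies highest.

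Dim probe sets, those below the median one, were displaced as a class at days 1, 14 and 49. At day 1, 62.1% of the dim and 44.5% of the bright probe sets lay above control. Among the members 6 of 24 dim and 5 of 9 bright ones did. Of the 15521 probe sets below the median, 79.2% lay above control at day 14 and 78% at day 49 with 19 arrays, against 50.8% and 26.3% of the 15521 brighter ones. With 17 arrays the dim shares were 63.6% and 64.7% and the bright ones 43.7% and 40.8%. The genes of other organs gave 15 of 18 above control at day 14, with a median of 0.13, and 18 of 18 at day 49, with a median of 0.30 (15 and 13 of 18 with 17 arrays, medians 0.05 and 0.08). Of the members, 23 of 24 dim and 7 of 9 bright ones lay above control at day 14, or 20 and 5 with 17 arrays. At day 49 the counts were 16 and 4, or 15 and 5 with 17 arrays. The part of the displacement of dim probe sets in the members' day 14 and day 49 values was not tested. At day 7, 53.2% of the dim and 51.4% of the bright probe sets and 9 of 18 genes of other organs lay above control, while 21 of 24 dim and 9 of 9 bright members did.

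Each time was also set against the one before, which uses no control array. Of the 33 members, 21 lay higher at day 3 than at day 1 (45.7% of all genes) and 24 higher at day 7 than at day 3 (56.6% of all genes), with medians of 0.02 and 0.05. From day 7 to day 14, 25 lay higher with 19 arrays (62.4% of all genes) but 14 with 17 arrays (50.5%), with medians of 0.07 and -0.02. From day 14 to day 49, 12 lay higher with 19 arrays (44.9%) and 14 with 17 (46.5%). At an unadjusted p under 0.05 there were 0, 1 (Prc1), 2 (Aurkb and Tyms) and 7 members at the 4 steps with 19 arrays, beside 1.85%, 0.561%, 5.4% and 14.2% of all probe sets. With 17 arrays there were 3 (Nusap1, Racgap1 and Mcm4), 2 (Nusap1 and Prc1), 0 and 1 (Aurkb), beside 7.92%, 2.96%, 3.84% and 5.56%. None of these differences passed the adjusted threshold, where 0.0258% of all probe sets did from day 1 to day 3 and 0% at the later steps with 19 arrays, and 0.203% and 0% with 17.

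**Figure D4:**
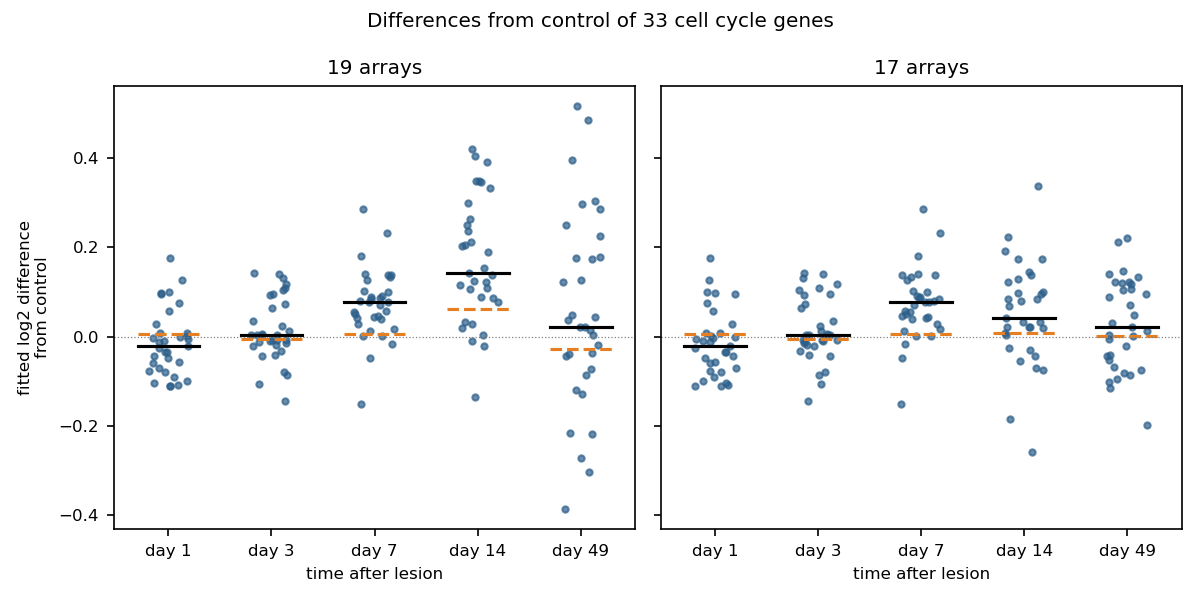
Fitted log2 difference from control of each of the 33 members (points) at each time, with 19 arrays (left) and with 17 (right), a black line at the members' median and a dashed line at the median of all 14217 genes. The day 7 points lie mostly above the line at 0 around a median of 0.08, and the wide scatter at days 14 and 49 on the left is narrower on the right.

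The members hardly varied together within groups. After each group's mean was taken out, the mean correlation over all 528 pairs of members was 0.16 in 19 arrays and 0.02 in 17, and over all pairs of the 14217 genes it was 0.017 and 0.020. So the co-movement in 19 arrays rested on the 2 arrays. The most alike pairs in 17 arrays were Top2a with Prc1 (r = 0.81) and Ccnb2 with Prc1 (r = 0.74), as a description over arrays that share groups of 2 to 4. Where a gene has several probe sets, as 8 members do, all of them had the same sign for 6 of 8 at day 7, 5 of 8 at days 1, 3, 14 and 49, and 3 of 8 at days 14 and 49 with 17 arrays.

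Regulators upstream of these genes gave no call either. Of 20 measured genes of G1 and S entry, 16 lay above control at day 7, with a median of 0.07, and 15 at day 14 (14 with 17 arrays). E2f2, an activating E2F factor, read 4.74, 4.88, 4.75 and 4.98 in controls. It read 5.13, 5.25 and 5.03 at day 1, 4.94, 4.80 and 4.69 at day 3, 5.21, 5.02 and 5.20 at day 7, 4.93, 5.35 and 5.32 at day 14 and 5.01, 4.89 and 5.03 at day 49. Its day 1 and day 7 arrays lay above all controls, as did those of 4.4% and 2.86% of all probe sets. At each of these times it was the only 1 of the 20 to do so. Its differences with 17 arrays were 0.30, -0.03, 0.30, 0.29 and 0.19 (0.36 and 0.14) in order of time. Here and for the genes named after it, parentheses hold the day 14 and day 49 differences with 19 arrays. E2f2 had an F test of unadjusted p = 0.00808 with 17 arrays and adjusted p = 0.531. E2f4, a repressor E2F in the DREAM complex, gave 0.03, -0.04, 0.03, 0.19 and 0.02 (0.21 and 0.02). Mycn, a transcription factor of the Myc family, gave -0.23, -0.13, 0.00, -0.23 and -0.16 (0.06 and -0.25).

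Of 14 measured inhibitors and brakes, 8 lay above control at day 7, with a median of 0.04. At day 1, 8 of 14 lay above control. With 17 arrays 7 of the 14 had an unadjusted p under 0.05 (7.12% of all probe sets), 5 higher and 2 lower, and with 19 arrays 2 did (1.64%), but none passed the adjusted threshold (0.219% and 0.0354% of all probe sets did). All day 1 arrays lay above all controls for 4 of the 14, Cdkn1a, Cdkn1c, Gadd45a and Gadd45g, as for 4.4% of all probe sets. The list mean was 7.61 to 7.70 at day 1 beside 7.51 to 7.59 in controls. Cdkn1a, the p21 inhibitor, singled out after its values were seen, read 7.23, 7.55 and 7.23 at day 1 beside 6.98, 7.19, 6.71 and 6.61 in controls, a difference of 0.46 ± 0.19 (adjusted p = 1, or 0.434 with 17 arrays). Gadd45a, a stress-induced growth arrest gene, differed by 0.43, 0.14, 0.14, 0.20 and -0.22 (0.13 and -0.10) at days 1, 3, 7, 14 and 49 with 17 arrays (F test adjusted p = 0.392). Wee1, the kinase that holds Cdk1 inactive, differed by -0.26, -0.14, 0.11, -0.36 and -0.04 (-0.66 and -0.29), with an F test adjusted p of 0.485. Cdkn2c, an inhibitor of Cdk4 and Cdk6, differed by 0.03, 0.03, 0.08, 0.23 and 0.04 (0.27 and -0.04). Gadd45a lay above all controls in its day 1 arrays, which read 9.73, 9.80 and 9.97 beside 9.30, 9.40, 9.50 and 9.42.

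Other replication genes lay above control for 20 of 28 at day 7 (median 0.05) and 23 of 28 at day 14 in both fits (median 0.12, or 0.04 with 17 arrays). The smallest F test p-values were those of Rfc3, Rpa2, Uhrf1 and Lig1. Uhrf1, which maintains DNA methylation behind the fork, differed by -0.01, -0.01, 0.15, 0.18 and 0.07 (0.20 and 0.10) with 17 arrays. Rfc3, a clamp loader subunit, gave 0.11, 0.02, 0.04, 0.12 and -0.08 (0.18 and -0.10). Rpa2, which coats single-stranded DNA, gave -0.05, -0.05, -0.08, 0.01 and -0.16 (0.04 and -0.30). Lig1, which joins Okazaki fragments, gave -0.09, -0.08, 0.05, -0.17 and -0.04 (-0.06 and 0.06). Other genes of mitosis lay above control for 26 of 41 at day 7 (median 0.03) and 31 of 41 at day 14 (median 0.14), or 25 of 41 (median 0.03) with 17 arrays.

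Kif22, a chromosome-arm motor, had the largest day 14 difference of those named from that list. It read 6.53, 6.18, 6.58 and 6.52 in controls, 6.62, 6.65 and 6.87 at day 7 and 6.97, 6.90 and 6.82 at day 14. The day 7 and day 14 arrays lay above all controls, as did those of 2.86% and 6.43% of all probe sets with 19 arrays. Of the 41 genes of that list, 4 did so at day 7 and 4 at day 14. The differences of Kif22 with 17 arrays were 0.02, 0.16, 0.26, 0.44 and 0.06 (0.45 and 0.00), with an F test adjusted p of 0.701. Ncaph, a condensin subunit, gave -0.11, -0.01, -0.05, 0.16 and 0.09 (0.14 and 0.13). Espl1, the separase that cleaves cohesin, gave 0.41, -0.02, 0.19, 0.11 and 0.13 (0.35 and 0.34).

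Markers of cells that could divide or enter the tissue were read in the same arrays. At day 7, 5 of 13 microglia and macrophage genes lay above control (median -0.02), and the mean of the list was 6.12 to 6.19 beside 6.14 to 6.24 in controls. Blood leukocyte genes counted 7 of 14 (median 0.00), from 4.67 to 4.84 beside 4.48 to 4.83 in controls. Their T cell genes Cd3d, Cd3e and Cd3g had means of 4.37, 3.98 and 4.03, within the range of the genes of other organs (3.65 to 6.22). Oligodendrocyte precursor genes counted 6 of 8 (median 0.12), with day 7 arrays at 6.03 to 6.10 and controls at 5.92 to 6.03. Astrocyte genes counted 6 of 9 and neural progenitor genes 5 of 9, and endothelial and pericyte genes 3 of 12. Meningeal and choroid plexus genes counted 2 of 14, red cell genes 5 of 6 and oligodendrocyte genes 6 of 9. None of these genes passed the threshold at day 7, where 0% of all probe sets did. Their part in the members' day 7 values was not tested.

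Neuron and layer V genes were bright (median 8.40, Snap25 at 13.1), with 12 of 15 above the median probe set. Among them Etv1 read 11.1, Bcl11b 5.70 and Fezf2 4.36. The meningeal and choroid plexus list was bright too (median 7.77), so brightness does not check the dissection. At day 7 the neuron and layer V genes counted 11 of 15 above control (median 0.02). Over all marker lists and times the calls were Gfap in the F test of 17 arrays (adjusted p = 0.0401, with 0.135% of all probe sets passing) and Lum and Aldh1a1, both lower, at day 1 in 17 arrays (adjusted p = 0.0410 and 0.0489, with 0.219% passing). The mean of the astrocyte list lay above its controls, 6.30 to 6.40, at day 1 (6.43 to 6.56) and at day 14 (6.46 to 6.80, or 6.46 to 6.51 without replicate 2). In 17 arrays 6 of its 9 genes were above control at day 14, with a median of 0.07 and a highest difference of 0.84 for Gfap. The oligodendrocyte precursor list also lay above its controls, 5.92 to 6.03, at day 14 (6.04 to 6.36, or 6.04 to 6.09 without replicate 2), with 6 of 8 genes above control and a median of 0.18 (0.09 with 17 arrays). The part of both lists in the members' day 14 values was not tested.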

How the data were processed

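Each array gave 1 log2 signal per probe set, which the authors computed with RMA, per the submitters' processing notes, and deposited. RMA subtracts background, equalizes the arrays by quantiles and summarizes probes robustly. No version is named. The labels' protocols give 6 ug of total RNA per array. Equal distributions hide any shift that all transcripts share. Scan dates were not used here. Precision is limited by how many arrays there are.

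The 57 array controls were left out of the tests, which left 31042 probe sets. Symbols came from the platform annotation, updated by gene ID for 20758 probe sets and by accession for 2, while 66 kept the annotation's symbol. In all 20826 had 1 symbol, 436 several and 9780 none. None was named from several.

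Limma 3.58.1 in R 4.3.3 fitted the 6 group means of the 19 arrays, with default eBayes (13 residual and 2.76 prior degrees of freedom), two-sided, with Benjamini-Hochberg adjustment over all probe sets and a threshold of 0.05. A second fit left out day14 replicate 2 and day49 replicate 2 (11 and 4.38). The test was also run on data simulated with independent noise and with changes added at day 14. Deviating arrays and effects shared within an array were not simulated, so the run does not show how small differences fare in these data. Promoters and plots used Python 3.11.15 with matplotlib 3.10.9. The members, lists and tests were chosen with earlier results of these data known. Per-array values are given for Mki67, Top2a, Cdk1 and Pcna, for the 3 members of smallest p at each time and for the 6 of smallest F test p in either fit, 20 in all. From each other list, genes past the threshold were to be named, otherwise the 2 of smallest F test p in each fit.

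The labels number replicates alike in each group and name no common day or litter. Deviations from group means of like-numbered control and day 1 arrays correlated by 0.166, 0.117 and 0.269, which is weak and does not establish a pairing. At day 7 the values were much like those of day 1, at 0.0935, 0.115 and 0.265. At days 3, 14 and 49 at least 1 of the 3 values was negative, and the highest was 0.420 (day 49 replicate 2). The errors and p-values in the Results, at every time, come from fits without a replicate block, and the block was fitted as an alternative. Alternatives were centring on array medians, a repeated quantile step, keeping only probe sets above the median one, array weights, trended and robust eBayes, averaging the probe sets of a gene, the replicate block, a covariate for the 3′ to 5′ difference of beta-actin, only the 2 groups compared, and each array left out in turn. Added after seeing the data were the block, the covariate and leave-one-out within the 17 arrays, and each time against the one before.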

Additional observations from a re-analysis of the deposited data

Results flagged for a closer look

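In the control group, 3 members had an array far from the other 3, by a gap over range above the Dixon 95% limit for 4 samples. Ccna2 read 3.30 in control replicate 2 (0.906 of the range). Top2a read 3.71 in control replicate 4 (0.851), so the Top2a differences from control rest in part on that array. Mcm2 read 5.91 in control replicate 3 (0.898). In all, 34 control groups were checked, the 33 members and their mean, and chance flags about 1 in 20.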

How the results depend on the processing

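Of 175 alternative counts of members past the threshold, 171 were 0. In the fits of 19 and of 17 arrays 0% of all probe sets passed at days 3, 7, 14 and 49. A count of 0 members lies near that share and is no result about the members. Array weights called 3 members in the F test (Mcm4, Nusap1 and Prc1) and 4 at day 49 (Bub1b, Mcm5 and Plk1 higher, Mcm3 lower), while calling 20.7% and 21% of all probe sets; the cause was not tested. Leaving out 1 array of the 19 gave 0 to 3 calls at day 49, the 3 being Kif23, Mcm5 and Plk1 without day 49 replicate 1 (7.84% of all probe sets). The remaining count that was not 0 came from within the 17 arrays, likewise without day 49 replicate 1. That fit rests on 1 array at day 49, replicate 3, and gave Bub1b a difference of 0.33. At the other times and in the F test leaving out 1 array gave 0.

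The median over members, with 1 array left out, ran from -0.0508 (without day 1 replicate 2) to -0.00281 at day 1, from 0.00 to 0.02 at day 3, from 0.0485 (without control replicate 4) to 0.0808 at day 7, from 0.04 to 0.22 at day 14 and from 0.00 to 0.06 at day 49 (-0.02 to 0.07 within the 17 arrays). Over the 9 brighter members alone it was 0.000327 at day 1, 0.0354 at day 3 and -0.0865 at day 49 (0.000473 there with 17 arrays). Array weights gave 0.0886 at day 49. With the beta-actin covariate it was 0.0402 at day 7, or 0.0631 in 17 arrays. The replicate block gave -0.0376 at day 1 and 0.0485 at day 7, the same in 17 arrays, and left all counts at 0. Replicate 4 exists only in the control group, so the block takes up that array. At days 1, 3 and 7 its differences are those without control replicate 4, so these are not separate checks. Of 21 named differences 18 kept their sign in every alternative, the others being Mki67 at days 7 and 14 and Pcna at day 7. Dim signals limit what can be seen of most members.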
